A study of Rattus norvegicus with 20 samples.

Results

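Whole blood of rats with surgically induced reflux esophagitis was compared between 12 treated and 4 untreated animals, and the question was which changes had 1 sign in all 3 treated groups and whether they held without each untreated array. The members were the 16 arrays whose titles give a treatment or the word untreated, out of 20 in the series, with 4 animals per group. Wistar rats received STW5 (0.5 ml/kg in one group, 2 ml/kg in another) or omeprazole (30 mg/kg), from 7 days before the operation until 10 days after it. The untreated rats had the operation alone, and 4 sham-operated rats entered the fit only through the spread between arrays. The sham arrays also counted in the background filter and in the choice of a probe per gene. A vehicle, the sex and the age are not given in the sources used here. Blood was drawn into tubes that preserve RNA, so all cell types of the blood are mixed, and fewer cells of a type and less RNA per cell cannot be told apart.

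In reflux esophagitis, gastric contents that flow back into the esophagus inflame its lining, and blood carries the leukocytes and platelets recruited to it. Omeprazole blocks the proton pump of the gastric parietal cell and so lowers acid. STW5 is a liquid mixture of medicinal plant extracts used for functional stomach and bowel complaints.

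Of 15231 genes tested, 25 were called with 1 sign in all 3 treated groups, and 6 of them have a symbol. Of these, Hif3a and Clec5a were higher in treated blood, while Glul, Cyp2t1, RatNP-3b and Nudt9 were lower. The probes behind the 6 are shown since each gene was read by 1 probe of 60 bases, and the calls turn on what these probes bind. All are written 5′ to 3′ in lower case, and capitals mark bases that align to the brighter probe of another gene.
Hif3a: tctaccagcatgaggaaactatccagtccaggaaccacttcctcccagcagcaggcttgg
Clec5a: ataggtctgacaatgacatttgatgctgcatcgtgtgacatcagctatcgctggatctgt
Glul: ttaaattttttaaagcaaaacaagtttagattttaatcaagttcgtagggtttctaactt
Cyp2t1: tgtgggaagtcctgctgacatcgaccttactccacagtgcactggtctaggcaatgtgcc
RatNP-3b: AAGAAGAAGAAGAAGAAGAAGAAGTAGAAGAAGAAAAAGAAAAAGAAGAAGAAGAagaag
Nudt9: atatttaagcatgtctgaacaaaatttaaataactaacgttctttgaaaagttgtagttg
The scanner files place the probe for Hif3a at chr1:77377552-77377611 of the rn4 build, on the minus strand, and the one for Clec5a at chr4:68175632-68175691, minus strand. That for Cyp2t1 lies at chr1:82233051-82233110 on the plus strand, that for RatNP-3b at chr8:124665843-124665902 on the plus strand and that for Nudt9 at chr14:6809110-6809169 on the minus strand. The files give no position for the probe of Glul, and no gene model of that build was used, so exon and UTR were not assigned. The RatNP-3b probe is a run of AAG repeats, which aligns to the brighter probe of LOC100361404 over 56 positions, gaps included, at 80.4% identity. The other 5 have no such match.

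The level of a gene is log2 of its processed signal minus log2 of the 75th percentile of its array, so a level of 0 is that percentile. The 75th percentile of the raw signal was 65.3 to 232.5 on treated arrays and 107.2 to 201.9 on untreated ones. Probes well above background made up 43.1% to 57.45% of all probes on treated arrays and 47.3% to 55.9% on untreated arrays. Of blood cell markers on the array, those well above background on all 20 arrays were 35 of 36 erythroid, 16 of 20 platelet, 20 of 26 mature neutrophil, 19 of 26 T cell, 14 of 20 monocyte, 10 of 18 NK cell, 9 of 20 B cell, 8 of 19 neutrophil granule and 4 of 16 eosinophil, basophil and mast cell genes. Slide 1 held all sham and untreated arrays, slide 2 all STW5 arrays and slide 3 all omeprazole arrays, so treatment and slide cannot be told apart in any comparison given here. The titles and the design text number the 2 STW5 dose groups in opposite order, and 8 columns of the deposited value table follow arrays of the other dose. The titles were used, and an exchange of the doses leaves the mean over the 3 treated groups and the shared signs as they are.

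The untreated arrays differed from each other, and 2 of them carried transcripts known mainly from tissues outside the blood. Untreated arrays 2 and 4 had 15 and 9 of 18 mesothelial genes well above background, against 2 to 8 on the 12 treated arrays, and 2 and 7 on untreated arrays 1 and 3. For genes of fibroblasts and matrix the counts were 17 and 14 of 20 on untreated arrays 2 and 4, against 8 to 12 on treated arrays. Msln, which encodes the mesothelial surface protein mesothelin, had levels of 6.50 and 1.57 on untreated arrays 2 and 4, against a median of -4.71 over the treated arrays and -3.003 and -5.88 on untreated arrays 1 and 3. C1qb, a chain of the complement starter C1q that tissue macrophages make, was at 5.87 and 6.93 on the same 2 arrays, against 0.44 and -1.24 on untreated arrays 1 and 3 and -0.92 to 2.32 on treated arrays. On 2 treated arrays several of these genes were higher than on the rest of their group. Msln was at -0.53 and Serping1, a complement inhibitor, at -0.80 on array 3 of STW5 2 ml/kg, and Folr2, a folate receptor of macrophages, was at 0.83 on array 2 of STW5 0.5 ml/kg. C1qa, the partner chain of C1qb, reached -0.24 and -1.48 on array 2 of STW5 0.5 ml/kg and array 3 of STW5 2 ml/kg, while its median over the treated arrays was -4.71. Dcn, Pdgfra, Col5a1, Wt1, Lrrn4, Muc16 and Bnc1, all of the mesothelial and matrix lists, were above background on untreated array 2 alone of the 20 arrays, and Col6a1 and Upk3b on untreated arrays 2 and 4 alone. Postn, Lum, Pdgfrb, C7 and Calb2, of the same lists or the complement list, were above background on no array.

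Untreated array 2 was also low in lymphocyte genes. Cd3e, a chain of the T cell receptor complex, was at -1.63 there, against 0.44 to 2.16 on treated arrays and 0.98 to 2.22 on the other 3 untreated arrays. S100a9, a neutrophil calcium-binding protein, was highest there of the 16 arrays, at 8.67 against 3.98 to 7.46 on treated arrays. Untreated array 1 stood on the other side: its highest correlation over genes was 0.992, with sham array 3, and its mean correlation was 0.984 with the sham arrays and 0.920 with the other untreated arrays. The part of these differences between untreated arrays in the results was not tested beyond the fits that leave arrays out. These lists of mesothelial, matrix, macrophage and complement genes were chosen after the levels had been seen.

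**Figure D1:**
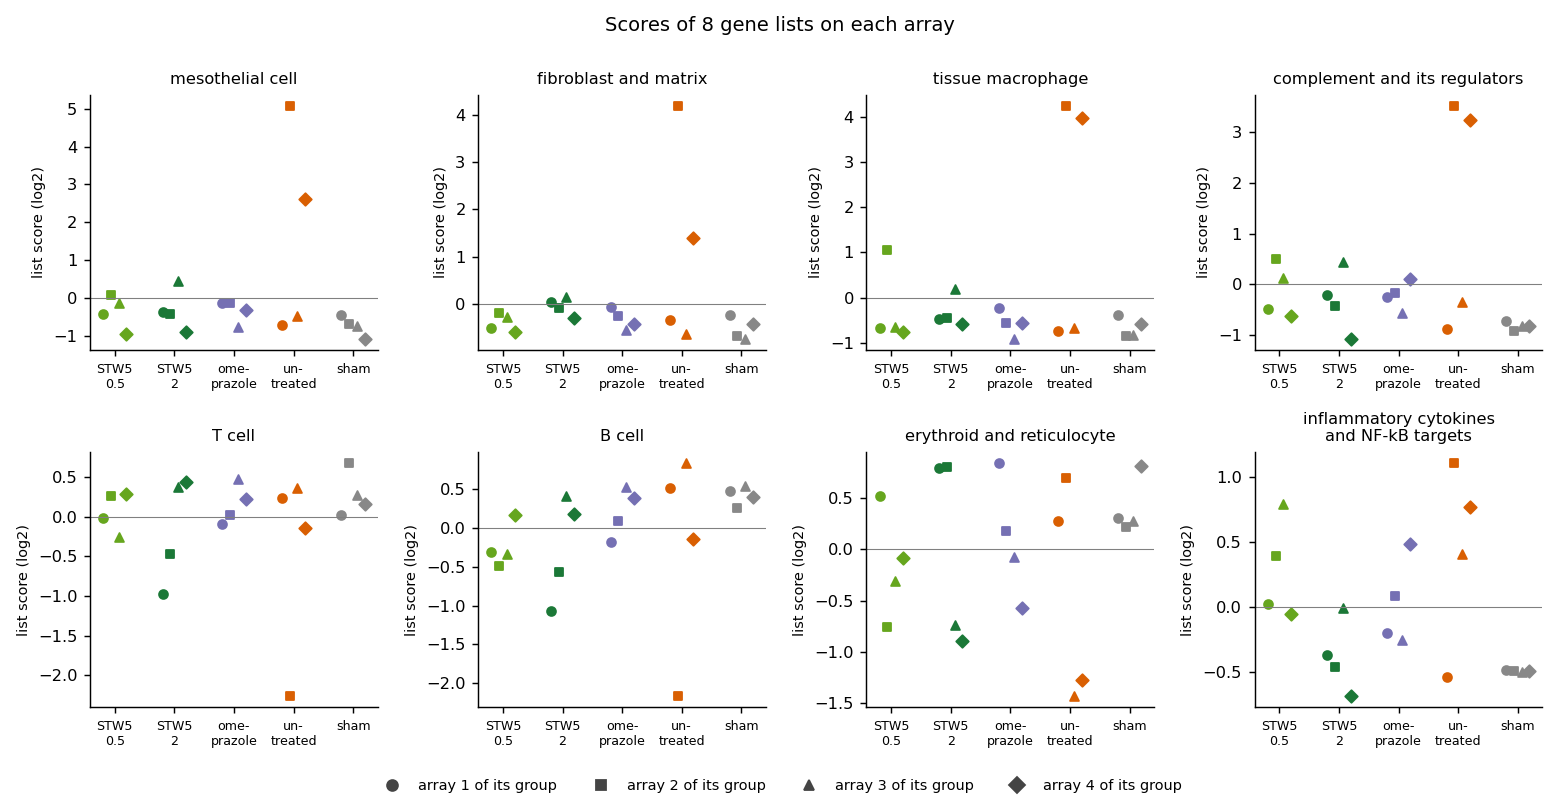
Scores of 8 gene lists, a mean of centred log2 levels per array, for each array by group; the symbols mark array 1 to 4 of a group. Untreated arrays 2 and 4 reach 5.07 and 2.61 for mesothelial genes, above all treated arrays (highest 0.45), and untreated array 2 is at -2.26 for T cell genes.

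In the mean of the 3 treated groups against untreated, 38 of 15231 genes were called at an adjusted p under 0.05 (0.249%), 3 higher and 35 lower in treated blood, and 2038 had an unadjusted p under 0.05 (13.4%). These counts depended on the processing: 30 were called after quantile normalization (6 higher), 0 on spike-in scaling, 2 with the 16 operated rats only, 4 with no filter on dim probes and 3781 with array weights (2043 higher), whose solver did not converge. Of the 38, 25 had 1 sign in all 3 treated groups (0.164%), 3 of them higher (0.0197%) and 22 lower (0.144%), and in the other 13 at least 1 group went the other way. A shared sign by itself is common, since the 3 comparisons use the same 4 untreated arrays: 7138 genes (46.9%) had it, called or not. Across the 25, the median change was -0.10 for STW5 0.5 ml/kg, -0.33 for STW5 2 ml/kg and -2.48 for omeprazole. The omeprazole change was the largest of the 3 in 22 of the 25, and 21 of the 25 also differed among the treated groups by an F test, which called 1174 genes in all (7.71%). The shared sign of most of these genes was thus a large difference in the omeprazole group beside small ones in the STW5 groups.

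Taken one at a time, the treated groups gave unequal counts. Omeprazole against untreated gave 640 called genes (4.20%), 63 higher (0.414%) and 577 lower (3.79%), with 2505 at an unadjusted p under 0.05 (16.4%). With limma, 0 genes (0%) were called for STW5 0.5 ml/kg, where 858 had an unadjusted p under 0.05 (5.63%), and 0 for STW5 2 ml/kg, where 3594 did (23.6%). No gene was called in each of the 3 comparisons with 1 sign, while 127 had an unadjusted p under 0.05 in each with 1 sign (0.834%). The 0 for STW5 2 ml/kg became 3698 on spike-in scaling (7 higher) and 3021 without untreated array 1 (2198 higher), so these counts differ in direction. With array weights the counts were 1020 for STW5 0.5 ml/kg, 3269 for STW5 2 ml/kg, 6385 for omeprazole and 428 for all 3. Of the 25 genes, 24 were also called for omeprazole alone. When the omeprazole group was left out of the mean, 0 genes were called.

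**Figure D2:**
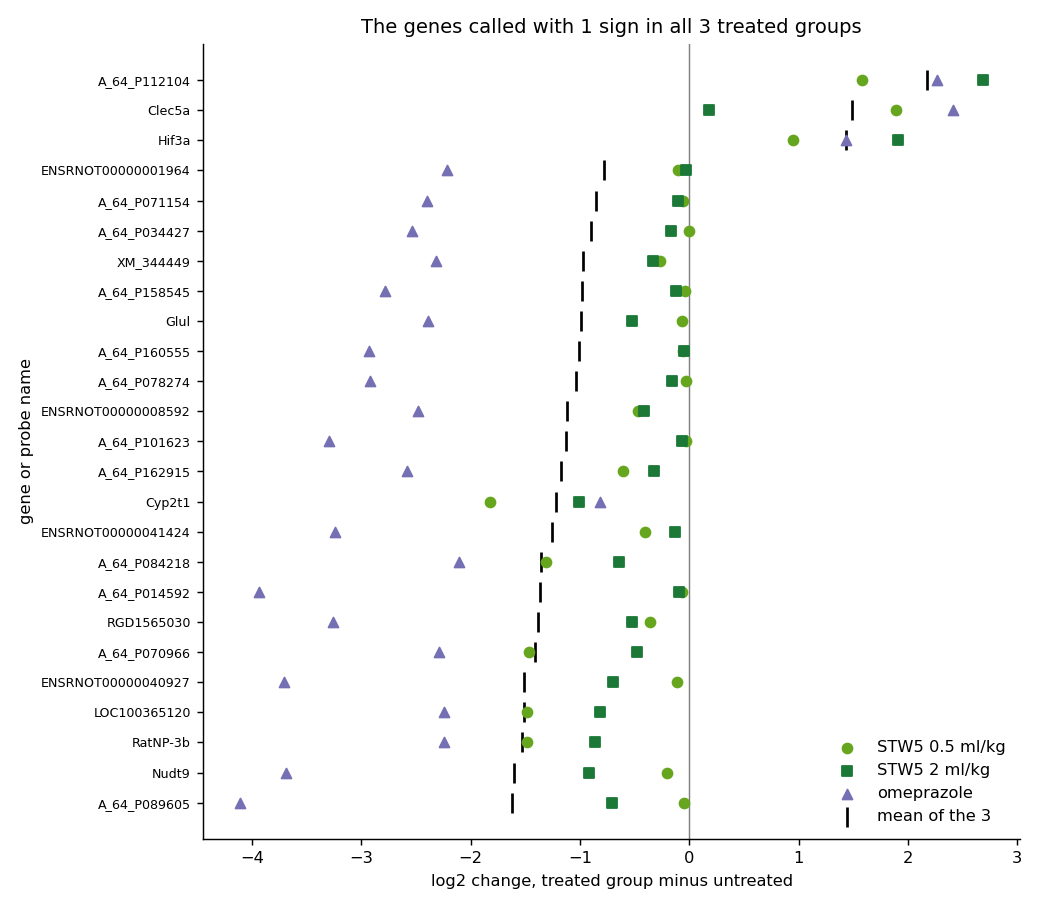
Log2 change against untreated for STW5 0.5 ml/kg (circles), STW5 2 ml/kg (squares) and omeprazole (triangles), with their mean (bars), for the 25 genes called with 1 sign in all 3 groups, by gene symbol or by identifier where there is none. Omeprazole lies far left of both STW5 doses for most lower genes. Hif3a, Cyp2t1, A_64_P112104 and LOC100365120 were the 4 that the F test did not call.

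Hif3a encodes the third alpha subunit of the hypoxia-inducible factors, whose short forms restrain the response to low oxygen. Its levels were -0.21, -0.93, -0.61 and -0.92 with STW5 0.5 ml/kg, 0.79, 0.59, -0.47 and 0.24 with STW5 2 ml/kg, and 0.38, -0.24, 0.07 and -0.97 with omeprazole, against -0.95, -2.08, -1.96 and -1.49 in untreated blood. The lowest treated array and the highest untreated one nearly meet, at -0.97 and -0.95, and all other treated arrays were above all untreated ones. Hif3a rose by 1.43 (SE 0.27, adjusted p = 0.0326) in the mean of the treated groups, and by 0.95, 1.91 and 1.43 in the order above. Only the last of these was called by itself (adjusted p = 0.0114, against 0.696 and 0.0959), but the adjustment was made within each comparison. By the limma test the unadjusted p was 0.00938, 1.27e-05 and 0.000334 in the order above, smallest for STW5 2 ml/kg. The 3 treated groups did not differ by the F test (adjusted p = 0.152). The sham level was -1.21 ± 0.31 and the untreated level -1.62 ± 0.51 (SD, n = 4 each). In each treated group Hif3a was lowest on the array with the highest raw 75th percentile. These were 232.5 with STW5 0.5 ml/kg, 136.4 with STW5 2 ml/kg and 173 with omeprazole. In untreated blood this was not so.

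Clec5a, a C-type lectin receptor of monocytes and neutrophils, was well above background on 7 of 12 treated arrays and on 0 of 4 untreated ones. With STW5 0.5 ml/kg it was at -2.44, -2.97, -1.99 and -3.05, with STW5 2 ml/kg at -4.12, -3.85, -4.64 and -4.68, and with omeprazole at -2.31, -1.64, -3.03 and -1.38, against -4.50, -4.01, -4.38 and -5.11 in untreated blood. The STW5 0.5 ml/kg and omeprazole arrays all lay above the untreated ones, and 1 STW5 2 ml/kg array, at -3.85, did too, while the other 3 lay among the untreated ones. No array of either of these groups was above background. The dim side allows a bound only: the gene was at least 2.42-fold higher with STW5 0.5 ml/kg (adjusted p = 0.305). With omeprazole the bound was about 3.47-fold (adjusted p = 0.000129), approximate since all 4 arrays entered as read and 3 of them passed background. Over the 12 no fold is given, since only 7 of them passed background (adjusted p = 0.0390 for the mean change). Each bound takes, on every array of the dim group, either the probe's measured signal or the weakest signal that passed background there, whichever is higher. For STW5 2 ml/kg no fold is given, and its fitted change, 0.18, became -0.03 without untreated array 4, so the shared sign was lost there. The F test called the difference among treated groups (adjusted p = 0.000654).

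Glul encodes glutamine synthetase, which makes glutamine from glutamate and ammonia. Its levels were 0.95, 0.49, 1.00 and 0.51 with STW5 0.5 ml/kg, 0.02, 0.66, 0.10 and 0.38 with STW5 2 ml/kg and -1.22, -1.82, -1.96 and -1.32 with omeprazole, against 1.01, 0.99, 0.73 and 0.51 in untreated blood. The omeprazole arrays lay far below all others, and the STW5 arrays overlapped with the untreated ones. Glul fell by 0.99 in the mean (SE 0.20, adjusted p = 0.0425), with changes of -0.07, -0.52 and -2.39 in the order above. The omeprazole change alone had an adjusted p of 1.53e-06, the STW5 changes 0.996 and 0.21.

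Cyp2t1 is a rat cytochrome P450 of family CYP2, enzymes that oxidise drugs and other foreign compounds. It was at -5.07, -3.97, -4.29 and -3.92 with STW5 0.5 ml/kg, -3.67, -3.17, -3.30 and -3.84 with STW5 2 ml/kg and -3.60, -3.24, -3.57 and -2.83 with omeprazole, against -2.81, -1.86, -2.95 and -2.35 in untreated blood. The gene was dim: it passed background on 0 of 8 STW5 arrays, 2 of 4 omeprazole arrays and 3 of 4 untreated arrays. The fitted change was -1.22 in the mean (SE 0.25, adjusted p = 0.0425). The bounds were about 2.77-fold lower with STW5 0.5 ml/kg (adjusted p = 0.124) and about 1.52-fold lower with STW5 2 ml/kg (adjusted p = 0.0991). They are approximate, since all 4 untreated arrays entered as read and 3 of them passed background. By the limma test the unadjusted p was 8.14e-06 with STW5 0.5 ml/kg, 0.00367 with STW5 2 ml/kg and 0.0144 with omeprazole. Cyp2t1 was the only one of the 6 not called for omeprazole alone (change -0.82, adjusted p = 0.17). Sham blood had -3.25 ± 0.39 (SD, n = 4), with 1 of 4 arrays above background.

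RatNP-3b is a rat neutrophil defensin, a small antimicrobial peptide stored in granules. Its probe read 2.23, 2.53, 1.99 and 2.98 with STW5 0.5 ml/kg, 2.23, 2.58, 3.54 and 3.89 with STW5 2 ml/kg and 1.71, 1.53, 1.36 and 2.09 with omeprazole, against 3.31, 3.68, 4.32 and 4.37 in untreated blood and 2.76 ± 0.21 in sham blood (SD, n = 4). It fell by 1.53 in the mean (SE 0.28, adjusted p = 0.0251). A second probe of the gene, A_44_P203401, did not follow it: its change was 0.46 with an SE of 1.00, and 1.27, 0.30 and -0.19 in the 3 groups. The probe used is the AAG repeat printed above, so its value is uncertain as a measure of the defensin.

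Nudt9 encodes a hydrolase that splits ADP-ribose. It was at -1.81, -1.31, -1.06 and -1.78 with STW5 0.5 ml/kg, -2.43, -2.41, -1.74 and -2.24 with STW5 2 ml/kg and -4.37, -5.33, -5.31 and -4.90 with omeprazole, against -2.45, -0.22, -1.38 and -1.09 in untreated blood. No omeprazole array was above background, so the gene was at least 4.85-fold lower there (adjusted p = 1.40e-06), and the mean change was -1.61 (SE 0.31, adjusted p = 0.0354). Both STW5 groups lay within the range of the untreated arrays, and the STW5 0.5 ml/kg change, -0.21, became 0.15 without untreated array 2.

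**Figure D3:**
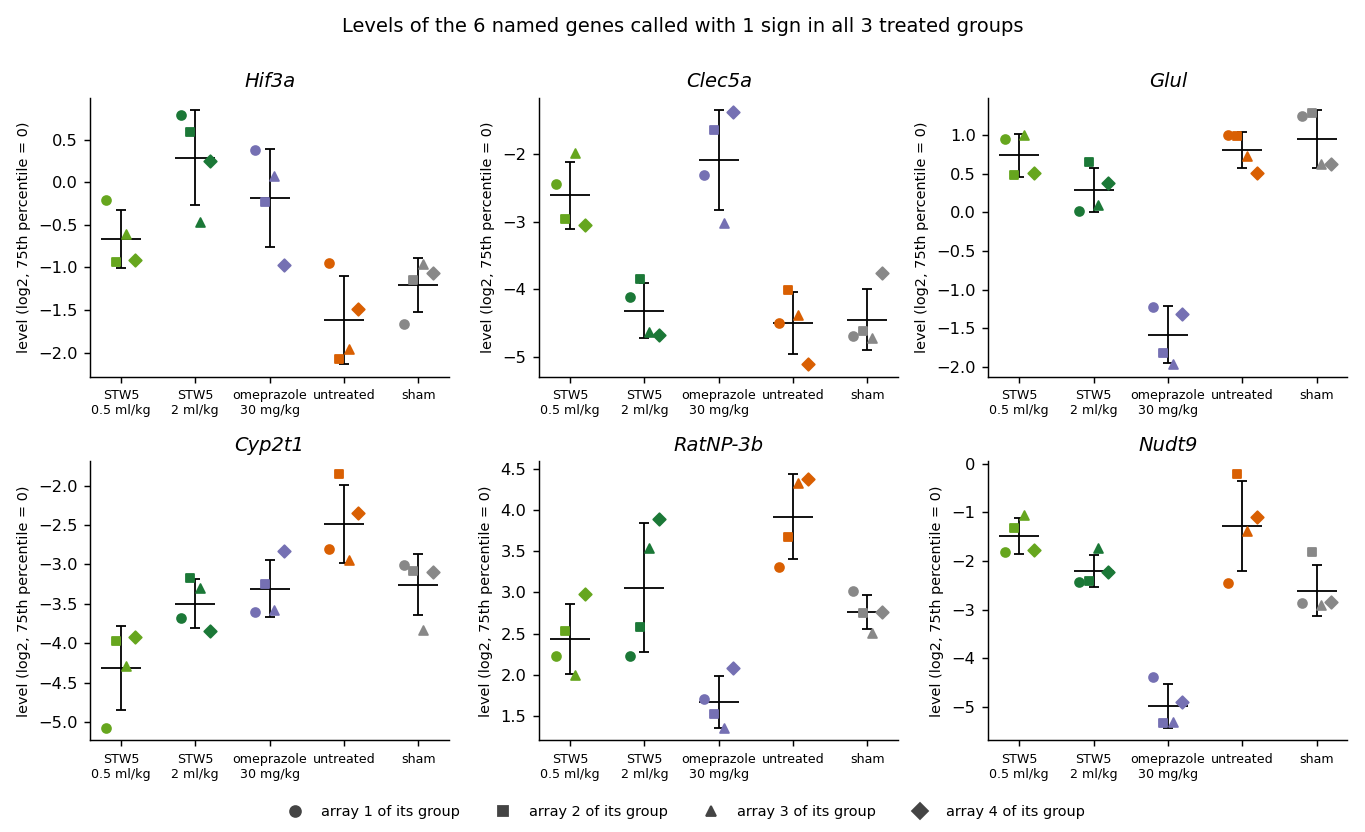
Levels of the 6 named genes on each array (log2, 75th percentile of the array = 0) by group, with the mean and SD of 4 arrays as bars; the symbols mark array 1 to 4 of a group. The omeprazole arrays lie below all others for Glul and Nudt9, and for Hif3a 11 of 12 treated arrays lie above all untreated ones.

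The calls of all 6 depended on the setting. Over the alternatives run, the call of the mean change was lost in 15 of 34 for Hif3a, 19 of 34 for Glul and 20 of 33 for Cyp2t1. It was lost in 15 of 33 for both Clec5a and Nudt9, and in 11 of 33 for RatNP-3b. The mean change kept its sign in all of these, but the shared sign did not always hold. As given above, Clec5a lost it without untreated array 4 and Nudt9 without untreated array 2.

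The other 19 of the 25 have no symbol in the files or the reference table. A_64_P112104, on chromosome 7, had a fitted mean change of 2.18 (SE 0.34, adjusted p = 0.0125), set against a group mostly below background, and was the only one of them whose groups did not overlap, with -2.57 to -0.48 on treated arrays and -4.40 to -2.81 on untreated ones. It was above background on all 12 treated arrays and 1 of 4 untreated arrays, and its fitted changes were 1.58 with STW5 0.5 ml/kg, 2.69 with STW5 2 ml/kg and 2.26 with omeprazole (F test adjusted p = 0.195). The remaining 18 were lower in treated blood, by -0.78 to -1.62 in the mean, and A_64_P014592 and A_64_P101623 had the smallest adjusted p, 0.00995. For both the STW5 changes lay between -0.09 and -0.03, against -3.93 and -3.29 with omeprazole. Of all 25 probes, 11 have a match of at least 30 bases at 80% identity or more to a brighter probe of another gene, against 1219 of the 15231 tested.

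Across all genes, 3 had all 12 treated arrays on one side of the 4 untreated (0.0197%). Besides A_64_P112104 these were Sytl4, which encodes granuphilin, a regulator of vesicle docking, and Nudcd2, which encodes a NudC domain protein, and both are named after their values were seen. Sytl4 was at -0.96 to 0.52 in treated blood, against -1.26 to -1.01 in untreated blood, and its change of 0.74 (SE 0.21) was not called (adjusted p = 0.137). Nudcd2 was at -2.69 to -2.37, against -2.34 to -2.04, with a change of -0.27 (SE 0.16, adjusted p = 0.461). For none of the 25 called genes did all 8 sham and untreated arrays, which share slide 1, lie on one side of the 12 treated arrays. This is no check on slide, since the STW5 changes of most of these genes were too small for such a separation.

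None of the 25 calls held without each untreated array in turn (0%). Without untreated array 1, 23 of the 25 were called again with their sign, without array 2, 2 were (A_64_P101623 and A_64_P160555), without array 3, 15 were, and without array 4, 1 was (A_64_P112104). By sign alone, 13 of the 25 kept it in all 4 of these fits, and the same number also kept an unadjusted p under 0.05, while 345 of all genes did both (2.27%). This difference is largely set by the choice, since the 25 were picked for a small p and 1 sign. Each of the 4 fits also shares all but 1 array with the main one. Hif3a had adjusted p values of 0.00776, 0.105, 0.0550 and 0.143 without arrays 1 to 4, with changes of 1.65, 1.28, 1.32 and 1.47. Its size thus moved little over these fits, while the call was lost in 3 of 4. Over the 34 alternatives the change of Hif3a ran from 0.77 to 1.67.

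The count over all genes depended far more on the untreated array left out. Without array 1, 1005 genes were called with 1 sign (6.60%), 481 higher (3.16%) and 524 lower (3.44%), without array 2, 2 genes were (0.0131%), without array 3, 55 (0.361%) and without array 4, 1 (0.00657%). Leaving out a treated array gave 2 to 41. Of the 1005, 3 of the higher and 20 of the lower genes were among the 25 called with all arrays. All 1005 kept their sign there, which was largely set by the choice, since both fits share every array but untreated array 1. With the untreated group reduced to arrays 1 and 3, 104 of the 524 lower genes (19.8%) and 12 of the 481 higher genes (2.49%) turned the other way, and 0 genes were called.

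**Figure D4:**
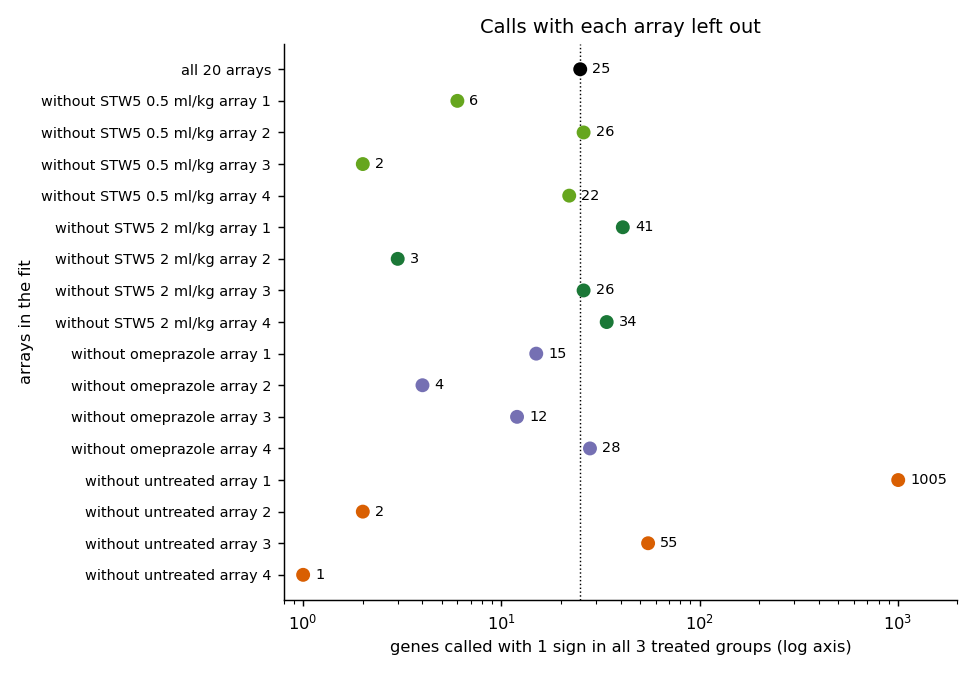
Number of genes called with 1 sign in all 3 treated groups (log axis) in the fit of all 20 arrays and in fits without each array of the treated and untreated groups. The count is 25 with all arrays, 2 to 41 without a treated array and 1, 2, 55 and 1005 without untreated arrays 4, 2, 3 and 1.

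The median level of the 524 lower genes was -0.81 over treated blood and 0.96, 0.23 and 0.86 on untreated arrays 2, 3 and 4, but -0.82 on untreated array 1 and -0.79 in sham blood. For the 481 higher genes it was -1.31 in treated blood, -2.21, -2.84 and -2.22 on untreated arrays 2, 3 and 4, and -1.11 and -1.37 on untreated array 1 and in sham blood. In both sets untreated array 1 was close to the treated and sham medians, and the other 3 were not. This is partly set by the choice, since the genes were picked for a difference from arrays 2, 3 and 4.

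The genes of largest change without untreated array 1, among those above background on all arrays, and chosen after seeing the data, were these. On the lower side most are complement or macrophage genes. C4a, a complement component, was at -1.40 to 2.76 in treated blood with a median of -0.56, against -0.98, 8.31, -0.15 and 6.71 on untreated arrays 1 to 4. Its change was -3.81 with all arrays (SE 1.16, adjusted p = 0.166) and -5.30 without array 1 (adjusted p = 0.0133), and it was 0.23 with untreated arrays 1 and 3 alone. Apoe, the lipid carrier apolipoprotein E, was at 7.11 and 3.18 on untreated arrays 2 and 4, against -1.15 to 1.23 in treated blood, and its change without array 1 was -3.95 (adjusted p = 0.0119). Cfb, C1qb, Folr2, Prg4, the joint lubricant lubricin, Enpp3 and Selp, the platelet and endothelial P-selectin, had changes of -2.96 to -3.65 without array 1. A second Selp probe, above background on no array, had a change of 0.21 with all arrays. In each of these 8 genes untreated arrays 2 and 4 were above every treated array, and untreated array 1 lay within the treated range.

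On the higher side the same fit named Selenbp1, a selenium-binding protein abundant in red cells, Ccndbp1, Slc16a5, a monocarboxylate carrier, Ube2s, which extends ubiquitin chains in mitosis, Atosb, Or4a77, Ccr7 and Hif3a. Selenbp1 was at 6.03 to 8.39 in treated blood, against 6.98, 6.04, 5.22 and 5.59 on untreated arrays 1 to 4, with changes of 1.33 with all arrays (adjusted p = 0.126) and 1.67 without array 1 (adjusted p = 0.0185). Ccndbp1 was at 6.05 to 8.54, against 7.39, 6.33, 4.60 and 5.37, with changes of 1.18 and 1.67 in the same fits (adjusted p = 0.233 and 0.0253). Red cell genes as a list had scores of 0.27, 0.70, -1.43 and -1.28 on arrays 1 to 4, against -0.89 to 0.84 on treated arrays.

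Of 27 gene lists written from general knowledge, 25 had no called member in the mean contrast. The exceptions held 1 called gene each, 2 of 656 list genes tested, beside 38 of all 15231 genes (0.249%), so the count says nothing particular of the lists: Clec5a among 31 lectin and immunoglobulin-like receptors and RatNP-3b among 13 neutrophil granule genes. The median change over all genes tested was 0.06, and a list is described by its median beside this value. Of all 15231 genes, 8595 were above 0, 4233 of them in all 3 groups, and 6636 were below 0. The T cell list had the highest median, 0.59, with 21 of 22 genes above 0 and 17 of them above 0 in all 3 groups. Erythroid genes followed with 0.54 (33 of 36 above 0), then interferon-stimulated genes with 0.35 (22 of 28). At the low end, besides 5 esophageal and liver genes, were MHC class II and dendritic cell genes with -0.46 (11 of 16 below 0), monocyte genes with -0.33 (13 of 18) and inflammatory cytokines and NF-kB targets with -0.32 (14 of 20). The MHC class II median was 0.10 without untreated array 4, and with untreated arrays 1 and 3 alone the monocyte median was 0.30 and the inflammatory one 0.01.

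The lymphocyte medians turned with untreated array 2. Without it the T cell median was -0.11 and the B cell median -0.45, against 0.59 and 0.24 with all arrays. Cd3g, a T cell receptor chain, was at 2.67 to 4.56 in treated blood, against 4.19, 1.18, 3.08 and 3.13 on untreated arrays 1 to 4, and its change of 1.07 (SE 0.38) was not called (adjusted p = 0.244). Ccr7, the homing receptor of naive T cells, was at -1.28 to 0.78, against 0.76, -2.38, -1.16 and -1.96, with a change of 1.04 (adjusted p = 0.27). Cd79b, of the B cell receptor, had a change of 0.64 with all arrays and by -0.33 without untreated array 2. Erythroid genes rested on other arrays: their median was 0.19 without untreated array 3 and 0.87 without array 1. Tmod1, the red cell tropomodulin, had a change of 0.76 (adjusted p = 0.393). Cpox, an enzyme of heme synthesis, had a mean change of -0.94 (adjusted p = 0.288) without a shared sign. Its fitted changes were 0.49 with STW5 0.5 ml/kg, -1.22 with STW5 2 ml/kg and -2.09 with omeprazole (adjusted p = 0.00766 for omeprazole). The F test called it (adjusted p = 0.00263). Cpox was above background on 4 of 12 treated arrays, all of STW5 0.5 ml/kg, and on 2 of 4 untreated arrays.

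Among interferon-stimulated genes, Ifit3 was at 1.30 to 3.77 in treated blood, against 1.24, 0.50, 2.29 and 1.47 on untreated arrays 1 to 4, with a change of 1.34 (SE 0.39, adjusted p = 0.151), with 1.06, 1.34 and 1.61 in the 3 groups. Eif2ak2, the kinase PKR, had a change of 0.83 (adjusted p = 0.22). The list median was -0.05 without untreated array 2. Inflammatory genes went both ways: Il1b, the cytokine interleukin 1 beta, was at 3.63 to 5.96, against 3.26, 3.102, 4.80 and 3.79, a change of 1.09 (adjusted p = 0.144). Cxcl16, a chemokine of macrophages, was at -4.47 to -0.81, against -1.46, 2.69, -2.02 and 2.97, a change of -3.07 (SE 0.72, adjusted p = 0.0731), and its 2 high values were again on untreated arrays 2 and 4.

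Monocyte and phagocyte genes had the same kind of spread. Cd68, a lysosomal protein of monocytes and macrophages, was at 1.33 to 3.69 in treated blood, against 2.12, 3.65, 3.29 and 5.12, and its change was -1.06 (adjusted p = 0.256). Cd300e, a receptor of patrolling monocytes, was above background on 11 of 12 treated and 1 of 4 untreated arrays, with a fitted change of 0.99 (adjusted p = 0.166). Cybb, the catalytic subunit of the phagocyte NADPH oxidase, had a change of -0.90 (adjusted p = 0.253), and Clec4d, a lectin receptor of neutrophils, by 0.84 (adjusted p = 0.274). In the platelet list, Ltbp1, which binds latent TGF-beta, had a change of -1.33 (adjusted p = 0.166), while the list median was -0.09. The esophageal and liver genes, which blood should lack, had a median of -0.82, which was 0.63 without untreated array 2.

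Txnip, the inhibitor of thioredoxin, came near the threshold in the mean with -1.59 (SE 0.37, adjusted p = 0.0719) and was another omeprazole difference: -0.01, -0.56 and -4.19 in the 3 groups. The same held for Hist1h2bq, a histone H2B, with 0.00, 0.16 and -5.01 (mean -1.62, adjusted p = 0.0701), and for RT1-T24-4, an MHC class I gene, with 0.25, 0.36 and -3.62 (mean -1.01, adjusted p = 0.164). The F test called all 3 of them. Txnip and Hist1h2bq were above background on 1 of 4 omeprazole arrays each, so their omeprazole levels are mostly below background. Klf9, a glucocorticoid-induced transcription factor, had values of -0.91, -1.21 and -0.83, with a mean of -0.98 (adjusted p = 0.168). Gstm1, a glutathione transferase, was at -0.38 to 0.60 in treated blood, against 0.79, 1.09, 0.56 and 0.73, with a change of -0.56 (SE 0.16, adjusted p = 0.154), again with 1 sign in all 3 groups. Proton pump and gastric acid target genes had a median of 0.14, with -0.46 for Atp6v1a, a vacuolar proton pump subunit (adjusted p = 0.328).

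The 4 lists chosen after the levels were seen had the lowest medians: -2.43 for tissue macrophages (10 genes tested), -1.97 for mesothelial cells (8), -1.25 for fibroblasts and matrix (13) and -1.13 for complement and its regulators (16). No member of these lists was called with all arrays. With untreated arrays 1 and 3 alone the medians were 0.36, 0.20, 0.35 and 0.41 in the same order. Both sets of medians were largely set by the choice of lists and by the background filter. Msln, C1qa, C1qc, C6 and Col3a1 passed it only through untreated arrays 2 and 4 and 2 treated arrays. Members above background on fewer than 4 arrays were not tested. Scaling on spike-in probes moved the median of all genes to -0.14, and then oxidative phosphorylation, proton pumps, histones, MHC class I and immediate early genes had medians below 0, while the T cell and erythroid medians were 0.38 and 0.33.

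**Figure D5:**
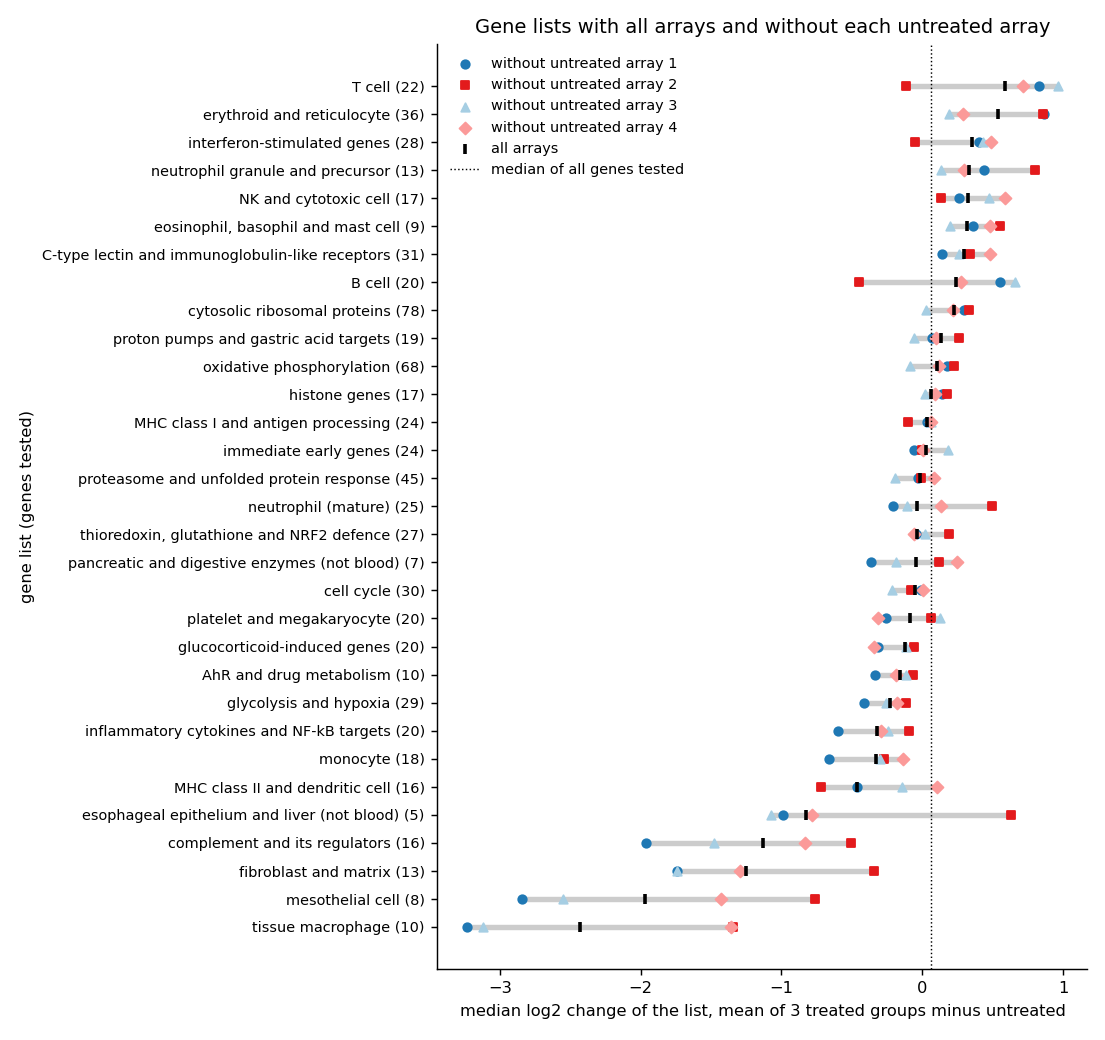
Median log2 change of each gene list in the mean of the 3 treated groups against untreated, with all arrays (black bars) and without untreated array 1, 2, 3 or 4 (coloured symbols), for 27 lists and 4 added ones; the dotted line is the median of all genes tested, 0.06. T cell and B cell medians cross to -0.11 and -0.45 without untreated array 2. The 4 added lists, chosen after the levels were seen, range lowest.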

How the data were processed

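Whole blood RNA of 20 rats was measured on 1-colour Agilent arrays, 4 per group. The deposited scanner intensity values are background-subtracted processed signals, and per the file headers the scanner software was Feature Extraction 10.7.3.1. The deposited value table holds a ratio per probe with a median of 1 in every column, and what the ratio was taken against is not given in the sources used here.

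From the 62976 spots, control spots and outlier flags were left out and spots of a probe averaged. Each array was scaled to its own 75th percentile on the log2 scale. A probe had to pass the background flag on 4 or more arrays, and the brightest stood for its gene, which left 15231 genes. Names came from the files and, for 21390 probes, from RefSeq's gene table. limma 3.58.1 in R 4.3.3 was fitted to 5 group means (15 residual degrees of freedom), with two-sided tests and Benjamini-Hochberg adjustment over all genes, called at an adjusted p under 0.05. The steps were tested on simulated data. Probe matches were found with blastn 2.17.0 (at least 30 bases at 80% identity). Array number limits the precision: the median SE of the mean contrast was 0.28.

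Named genes were those with a symbol among the called genes of 1 sign, and from each list the 2 members of smallest p. The members, the 27 lists and the rules were chosen with earlier results of these data known. The genes of largest change without untreated array 1 (up to 8 per direction), 5 tissue genes, 4 lists and 3 alternatives were added after seeing the data. Alternatives covered scaling, background correction, filters, array weights, blocks, groups and arrays left out.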

Additional observations from a re-analysis of the deposited data

Results flagged for a closer look

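Of 304 groups of 4 arrays examined for the named genes, 20 held an array far from the other 3, 18 of them in treated and 2 in untreated groups, and chance gives about 1 in 20 groups. With STW5 0.5 ml/kg, array 2 stood apart for C1qa (-0.24, others -5.44 to -5.06), Folr2 (0.83, others -1.45 to -1.08), Ccne1 (-1.26, others -3.49 to -3.38) and Pdia4 (-2.18, others -3.31 to -3.17). In the same group Il1b was 5.96 on array 3 (others 4.87 to 4.95), Cpox was -2.88 on array 4 (others -2.06 to -1.90) and Slc16a5 was -0.59 on array 1 (others -1.28 to -1.19).

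With STW5 2 ml/kg, array 3 stood apart for Msln (-0.53, others -4.60 to -4.05), Serping1 (-0.80, others -4.32 to -3.74), C1qa (-1.48, others -4.81 to -4.56) and Ms4a3 (-2.51, others -1.55 to -1.35). Array 4 of that group stood apart for Prss3 (-2.64, others 0.74 to 1.17), Try10 (-2.08, others 0.53 to 0.85) and Il1b (3.63, others 4.60 to 4.79), and array 2 for Gstm1 (-0.38, others 0.17 to 0.26). With omeprazole, Cd300e was -3.34 on array 4 (others -2.44 to -2.26), Ltbp1 was -3.88 on array 2 (others -2.83 to -2.65) and Klf9 was -0.67 on array 1 (others -0.19 to -0.10). In untreated blood, Errfi1 was 0.74 on array 2 (others -1.48 to -1.45) and Atp6v1a was -0.70 on array 1 (others -0.09 to -0.01).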

How the results depend on the processing

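Counts are given as called genes, then those of 1 sign in all 3 treated groups. They were 0 and 0 on spike-in scaling, 14 and 7 in the deposited value table, 4 and 3 with no filter on dim probes, 2 and 1 with the 16 operated rats only, 3781 and 3581 with array weights, 105 and 54 with the 75th percentile as a covariate, 0 and 0 with slide as a random block over 3 groups (and also 0 without the block), 0 and 0 with untreated arrays 1 and 3 alone, and 4 and 4 over probes with no match to a brighter one. With a treated group left out, the second count asks for 1 sign in the 2 groups kept only. Leaving out STW5 0.5 ml/kg gave 275 and 195, leaving out STW5 2 ml/kg 295 and 229, and leaving out omeprazole 0 and 0. The array weights ran from 0.21 to 16.9 without the solver converging. With the replicate block the counts were 67 and 48, and 1 for STW5 0.5 ml/kg. Same-numbered arrays correlated at -0.44 to 0.59 (median 0.09), so the numbers were not taken as pairs. Omeprazole alone gave 410 on spike-ins, 366 with the filter on all 20 arrays, 6385 with array weights, 1238 with the covariate, 398 with untreated arrays 1 and 3, and 237 without matching probes. STW5 2 ml/kg gave 3698 on spike-ins (7 higher), 3269 with array weights (1939 higher) and 1 without matching probes. STW5 0.5 ml/kg gave 1 in the value table, 1020 with array weights and 2 with the covariate. The columns of the value table for this dose follow the arrays titled 2 ml/kg. Array weights gave 428 genes called in all 3 comparisons. The F test gave 7555 on spike-ins, 781 with 16 arrays, 4968 with array weights and 626 without matching probes. The calls of 2 genes held without each untreated array under the covariate (A_64_P024464 and A_64_P108911). Leaving out 1 array gave 2 to 1048 called, 1 to 1005 of 1 sign, 487 to 1302 for omeprazole, 0 to 5 for STW5 0.5 ml/kg, 0 to 3021 for STW5 2 ml/kg (805 without its array 3), 0 to 1 in all 3, 697 to 1667 in the F test and 0 to 1 held. Of the gene values, 19 reversed, 95 lost and 123 gained a call, and 2317 did neither. With normexp, Cpox was 0.0048 and Batf3 0.0193. Without omeprazole, Hist1h2bq was 0.0823, RT1-T24-4 0.3043 and Rpl7a 0.0012. With untreated arrays 1 and 3, Ebf1 was -0.44, Cd79b -0.74, C4a 0.23, Cfb 0.40, C1qb 0.68, Folr2 0.34, Prg4 0.59, Enpp3 0.12, Msln 0.16, Serping1 0.82, C1qa 0.75, Col3a1 0.77 and Krt18 0.19, and Cd79b lay between -0.33 and 1.101 when 1 array was left out. Causes of these changes were not tested.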
